A study of Mus musculus with 20 samples.

Results

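Tmem184c is a multi-pass membrane protein gene, and its mRNA was one of the transcripts most strongly recovered with tagged Tet2 in RNA immunoprecipitation sequencing (RIP-Seq) of mouse embryonic stem cells (ESCs). It is described here with its paralogs Tmem184a and Tmem184b. Tmem184c was selected on its immunoprecipitate (IP) over input ratio in Tet2, and the paralogs by name, which gave 3 of the 23284 genes measured. For this reason the Tet2 ratio of Tmem184c is given as a description with no test. The rule did not use its ratios in the other lines or any ratio of the paralogs. Still, the p-values that the fit of counts gave Tmem184c in those lines are not fully separate from the choice. That fit estimates the spread over all libraries, Tet2 included, and the genes were chosen with earlier results of these data known.

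The 20 libraries formed 10 IP and input pairs from 3 ESC lines, all grown with leukemia inhibitory factor on gelatin. In each line the endogenous gene had been edited with a Cas9 nickase to add a C-terminal triple tag (Flag, HA and Twin-Strep), and lines were derived from picked clones. There were 2 pairs from Tet1-KI cells (tagged Tet1), 4 from Tet2-KI cells (tagged Tet2) and 4 from Tet2dRBD-KI cells, in which tagged Tet2 lacked its RNA-binding domain (Tet2ΔRBD). IP libraries held RNA recovered with anti-Flag antibody from cytoplasmic extract, and input libraries held total RNA. The contribution of this difference in starting material to the ratios was not tested. Nothing in the labels said whether replicates came from separate cultures. The paper describes its RIP-Seq as done in biological duplicate or more, without saying which libraries these were. The p-values therefore measure the spread between these samples only. Control reactions with mouse IgG are described in the paper, but neither an IgG library nor an IP from untagged cells was analysed here. The Tet1 libraries and replicates 3 and 4 of the Tet2 and Tet2ΔRBD lines belonged to one library set, called set 3 here, while replicates 1 and 2 of both lines each belonged to a set of their own (sets 1 and 2). Total expected counts per library lay between 21078995 and 37576638. All 10 ESC markers examined (such as Pou5f1 and Nanog) were expressed, with summed levels of 14573 to 19003 TPM (counts scaled for transcript length and to one library total) in input. The summed TPM of 6 fibroblast markers was 14.4 to 66.2 in input and 16.6 to 50.4 in IP. That of 5 primitive endoderm markers varied more, from 9.5 to 99.8 in input and 8 to 113.91 in IP. For 4 mesoderm and neural markers it was 7.67 to 20.28 in input and 7.38 to 31.82 in IP.

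TMEM184 proteins are predicted to cross the membrane several times and are related to the organic solute transporter alpha subunit, which together with a beta subunit moves bile acids and steroids across the cell membrane. Tmem184a has been described as a heparin receptor of vascular cells, and Tmem184b has been studied in neurons, where it is linked to endosomes, lysosomes and axon degeneration. Much less is known of Tmem184c, which was formerly named Tmem34. Tet enzymes oxidise 5-methylcytosine to 5-hydroxymethylcytosine, in DNA and also in RNA, and RIP-Seq asks which transcripts are found with the tagged enzyme.

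In mm9 the 3 genes lay on separate chromosomes and all on the minus strand. Tmem184a (ENSMUSG00000036687.7) spanned chr5:140278439-140295871, Tmem184b (ENSMUSG00000009035.6) chr15:79191114-79233733 and Tmem184c (ENSMUSG00000031617.9) chr8:80119881-80134597. Aligned over their coding sequences, Tmem184a and Tmem184b shared 65.9% of residues, whereas Tmem184c shared 30.9% with Tmem184a and 34.0% with Tmem184b. A coding window of 60 bases, which lay in exon 7 of each gene, shows how far the transcripts have diverged there. It was chosen on identical residues, 9 of 20 in all 3 genes, and need not be the window with the most identical bases. It is given 5′ to 3′ from the mm9 genome for chr5:140282908-140282967, chr15:79196266-79196325 and chr8:80123600-80123659, with the 27 bases that are the same in all 3 transcripts in capitals.
Tmem184a: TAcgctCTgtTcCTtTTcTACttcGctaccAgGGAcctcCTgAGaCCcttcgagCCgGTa
Tmem184b: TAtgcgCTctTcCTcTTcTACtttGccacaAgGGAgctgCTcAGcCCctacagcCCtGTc
Tmem184c: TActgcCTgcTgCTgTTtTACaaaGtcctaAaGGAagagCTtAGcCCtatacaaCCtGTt
Within this window Tmem184a and Tmem184b were identical at 43 bases, while Tmem184c matched Tmem184a at 31 and Tmem184b at 32. Over the whole transcripts, the longest run of identical bases was 39 between Tmem184a and Tmem184b, but only 13 and 14 between Tmem184c and each of them. No protein-coding transcript of another gene shared a stretch of at least 50 bases, at 95% identity or more, with any of the 3 transcripts. Noncoding transcripts and the opposite strand were not searched, and for Tmem184a the form of 2039 bases was used.

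The transcripts also differed in composition. The Tmem184c transcript had 2678 bases in 10 exons and was 43.1% G or C, which placed it at the 18.8th percentile of 22611 genes, while Tmem184a (55.2%) and Tmem184b (57.8%) lay at the 78.7th and 89.5th. Its share of pyrimidines (C or T) was 48.6%, at the 36.3rd percentile, against 51.0% for Tmem184a and 54.4% for Tmem184b, at the 70.3rd and 91.3rd. Thus Tmem184c, the gene chosen on Tet2, had the lowest share of G and C and of pyrimidines of the 3. Composition was taken from the longest annotated transcript of each gene. For Tmem184a this had 4326 bases, against 2039 in the form with the longest coding sequence, which was aligned above. Its composition therefore need not be that of the forms measured.

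Tmem184c mRNA was scarce in ESCs but far more abundant in IP, in all 3 lines. In Tet1 its level was 1.00 and 0.56 TPM in input and 15.2 and 17.3 TPM in IP. In Tet2 it was 0.17, 1.51, 0.90 and 0.87 TPM in the inputs of replicates 1 to 4, against 6.91, 3.36, 14.6 and 16.1 TPM in their IPs. In Tet2ΔRBD the inputs held 0.15, 0.51, 0.76 and 2.95 TPM, and the IPs 9.69, 1.81, 16.5 and 14.8 TPM. Every IP exceeded its own input, and in Tet1 and Tet2 the lowest IP lay above the highest input, whereas in Tet2ΔRBD the IP of replicate 2 (1.81 TPM) fell below the input of replicate 4. Replicate 2, the only replicate of library set 2, had the lowest IP level in both lines. The input values rested on few reads: replicate 1 had 9 (Tet2) and 7 (Tet2ΔRBD) expected counts, and the highest input count was 121. Tmem184c reached 1 CPM (counts scaled to library total only) in 7 of 10 inputs and in all 10 IPs. The ratios are therefore ratios to a low and imprecise base.

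**Figure D1:**
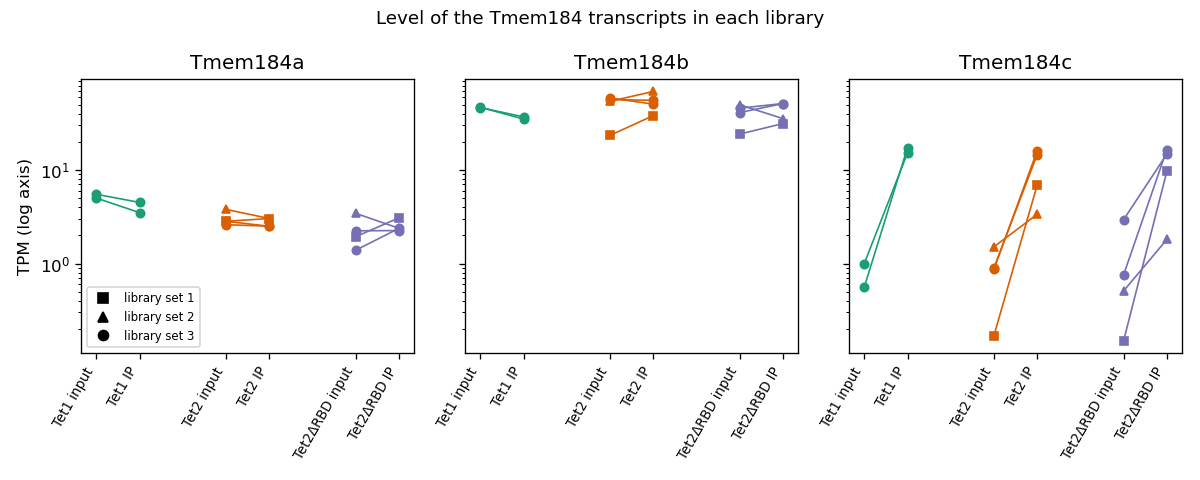
TPM of Tmem184a, Tmem184b and Tmem184c (log axis) in the input and IP library of each pair, joined by a line, for Tet1 (2 pairs), Tet2 (4) and Tet2ΔRBD (4), with the marker showing the library set. Every Tmem184c line rises from input to IP, from at most 2.95 TPM to as much as 17.3 TPM, while those of the paralogs go in both directions and are far less steep.

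On the log2 scale of TPM + 1, which understates changes from a low level, the IP over input ratio of Tmem184c was 3.29 ± 0.38 in Tet1 (SD, n = 2), 2.45 ± 1.11 in Tet2 (SD, n = 4) and 2.36 ± 1.14 in Tet2ΔRBD (SD, n = 4). The lines thus overlapped widely, and most of the spread followed the library set. The 2 pairs of set 2 gave 0.80 and 0.90, whereas those of set 1 gave 2.76 and 3.22 and the 6 pairs of set 3 ran from 2.00 to 3.55. Its log2 ratios were set against those of all genes that averaged 1 TPM or more in the inputs. Tmem184c itself averaged 0.938 TPM there, so it was ranked among more abundant genes only. It lay at the 74.1st (Tet2) and 89.3rd (Tet2ΔRBD) percentile in set 2, and above the 99.3rd percentile in every other pair. What sets the libraries of replicate 2 apart was not tested. They were also the deepest libraries of each kind, with 35967015 to 37576638 expected counts.

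**Figure D2:**
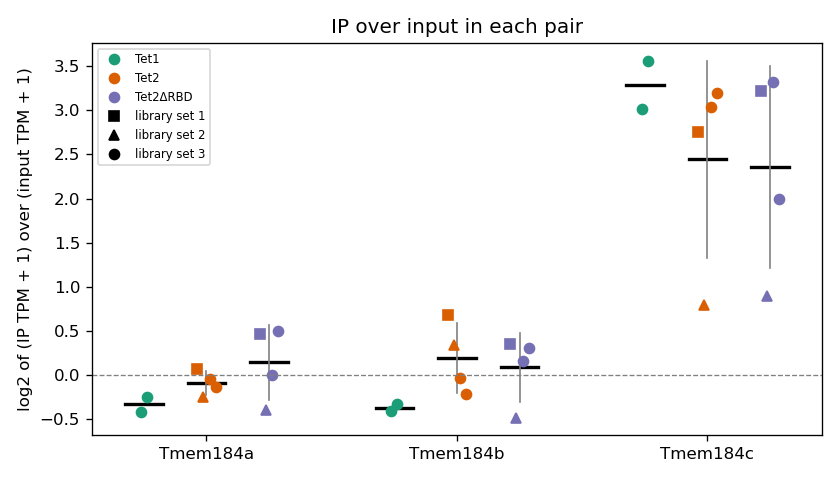
Log2 of (IP TPM + 1) over (input TPM + 1) for each pair, by gene and line (colour) and library set (marker). Black bars are means and grey lines ± 1 SD, drawn where n = 4. Tmem184c is above 0 in all 10 pairs, with the pairs of library set 2 lowest at 0.80 and 0.90.

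Counts were then compared across all genes with edgeR, with each pair as a block and a separate IP effect per line. The fit gave Tmem184c a log2 ratio of 4.26 in Tet1 (SE 0.98, adjusted p = 0.0355), that is 19.1-fold, and of 3.15 in Tet2ΔRBD (SE 0.70, adjusted p = 0.0127), that is 8.89-fold. By this test 2.72% of the 13710 genes were called higher in IP in Tet1 and 7.4% in Tet2ΔRBD. By log2 ratio among all 13710, called or not, Tmem184c ranked 18 and 14. In Tet2, where it was chosen, the fitted log2 ratio was 3.26 and its rank 16. Both calls were close to the threshold for such large ratios, and they were not stable. Without the pair block the adjusted p was 0.584 in Tet1 and 0.126 in Tet2ΔRBD, and with replicates 3 and 4 merged it was 0.0543 in Tet1 and 0.0471 in Tet2ΔRBD. In Tet1 it ranged from 0.0126 to 0.565 as each pair was left out in turn, and the fits that left 1 Tet1 pair gave 0.318 and 0.565. Leaving out Tet2 replicate 3 or 4 (0.0541 for both) or Tet2ΔRBD replicate 3 (0.0521) also put it above the threshold. In Tet2ΔRBD the call was lost only without replicate 3 (adjusted p = 0.0679). Among the libraries of set 3 alone, an alternative chosen after seeing the data, the log2 ratio was 4.19 in Tet1 and 2.91 in Tet2ΔRBD, with adjusted p of 1.67e-05 and 5.38e-05. Replicates of one line within that set differed little, so these p-values may be too small. Over the 6 pairs of Tet1 and Tet2ΔRBD the ratio was above 0 in 6 of 6, with a mean of 2.67 ± 1.02 (SD). A two-sided exact sign-flip permutation test gave p = 0.0312, the smallest that 6 pairs allow (0.0938 after Benjamini-Hochberg adjustment over the 6 such tests made). It takes the pairs as independent, but the 2 Tet1 pairs were much alike, and so were replicates 3 and 4 of Tet2ΔRBD. The p-value may therefore be too small.

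The ratio of Tmem184c was of similar size with and without the RNA-binding domain of Tet2, but the interval of the difference was wide. The fitted log2 ratio in Tet2 minus that in Tet2ΔRBD was 0.10, with 2 SE on either side reaching from −1.86 to 2.07, and since Tet2 chose the gene this difference has no test. Without Tet2 replicate 2 it was 1.00, and in library set 3 alone it was 0.99. Tet1 exceeded Tet2ΔRBD by 1.10 on the same scale (SE 1.16, adjusted p = 1), with an interval from −1.21 to 3.42. Few genes were called in either comparison, 0.0219% of those tested (3 genes) for Tet2 against Tet2ΔRBD and 0% for Tet1 against Tet2ΔRBD, where 216 genes had an unadjusted p under 0.05.

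Tmem184b was the most abundant of the 3 in ESCs and was not raised in IP. In Tet1 its level was 46.9 and 46.5 TPM in input and 35.0 and 37.0 TPM in IP. In Tet2 the inputs held 23.5, 54.3, 56.7 and 58.9 TPM and the IPs 38.2, 69.2, 55.6 and 50.7 TPM, and in Tet2ΔRBD the inputs held 24.2, 49.8, 45.8 and 41.2 TPM and the IPs 31.4, 35.5, 51.4 and 51.3 TPM. The groups overlapped in Tet2 and Tet2ΔRBD, and in both lines replicate 1 had the lowest input. In Tet1, IP was below input in both pairs without overlap. The fitted log2 ratio was −0.54 in Tet1 (SE 0.19, adjusted p = 0.117), −0.11 in Tet2 (SE 0.13, adjusted p = 0.551) and −0.19 in Tet2ΔRBD (SE 0.13, adjusted p = 0.320). No line passed the threshold, where 3.18%, 18.5% and 12.1% of genes were called lower in IP in Tet1, Tet2 and Tet2ΔRBD. The Tet1 call depended on which libraries shared the fit: within library set 3 the log2 ratio was −0.57, with an adjusted p of 0.000142, and that in Tet2 was −0.32, with an adjusted p of 0.00399. Both rest on replicates that differed little, so these p-values may be too small. Across all 10 pairs the mean log2 ratio was 0.04 ± 0.39 (SD), above 0 in 5 pairs (p = 0.746, two-sided exact sign-flip permutation test).

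Tmem184a was expressed at a low level, and no difference between its IP and input passed the test over all libraries. In Tet1 its level was 5.01 and 5.50 TPM in input and 3.50 and 4.50 TPM in IP. In Tet2 it was 2.83, 3.79, 2.60 and 2.83 TPM in input and 3.03, 3.03, 2.51 and 2.50 TPM in IP, and in Tet2ΔRBD it was 1.94, 3.44, 2.24 and 1.39 TPM in input and 3.08, 2.38, 2.25 and 2.38 TPM in IP. Only in Tet1 did IP and input not overlap. The fitted log2 ratio was −0.57 in Tet1 (SE 0.27, adjusted p = 0.228), −0.42 in Tet2 (SE 0.19, adjusted p = 0.116) and −0.07 in Tet2ΔRBD (SE 0.20, adjusted p = 0.825). Within library set 3 the log2 ratio in Tet1 was −0.60, with an adjusted p of 0.0214, which has the same limit as the other p-values from that set. The mean log2 ratio over the 10 pairs was −0.04 ± 0.32 (SD), with 6 pairs below 0 (p = 0.680 by the same exact permutation test). With each pair centred on its own median gene the mean was −0.22 (p = 0.0449, exact permutation test). This test too takes alike pairs as independent. The fitted ratio in Tet2 differed from that in Tet2ΔRBD by −0.35 for Tmem184a, with an interval from −0.90 to 0.21, and by 0.08 for Tmem184b, with an interval from −0.29 to 0.46. Neither difference passed the test (adjusted p = 1.00 for both in the same edgeR fit).

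Because both paralogs were measured in the same libraries, Tmem184c could be compared with Tmem184b pair by pair. The log2 ratio of Tmem184c exceeded that of Tmem184b by 3.43 and 3.87 in Tet1, and by 2.86, 1.37, 3.15 and 1.69 in replicates 1 to 4 of Tet2ΔRBD. The mean of these 6 differences was 2.73 ± 0.99 (SD), and all 6 were above 0. A two-sided exact sign-flip permutation test gave p = 0.0312, the smallest possible, and 0.0938 after adjustment. The test takes alike pairs as independent here too, so its p-value may be too small. In Tet2, shown without a test, the differences were 2.08, 0.45, 3.07 and 3.40. As a share of the summed TPM of the family, Tmem184c made up 0.570% to 6.48% in input. In IP it made up 28.3% and 29.4% in Tet1, 14.4%, 4.45%, 20.1% and 23.2% in Tet2 and 22.0%, 4.56%, 23.6% and 21.6% in Tet2ΔRBD. The share rose in each pair, and least in replicate 2 of Tet2, from 2.53% to 4.45%.

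**Figure D3:**
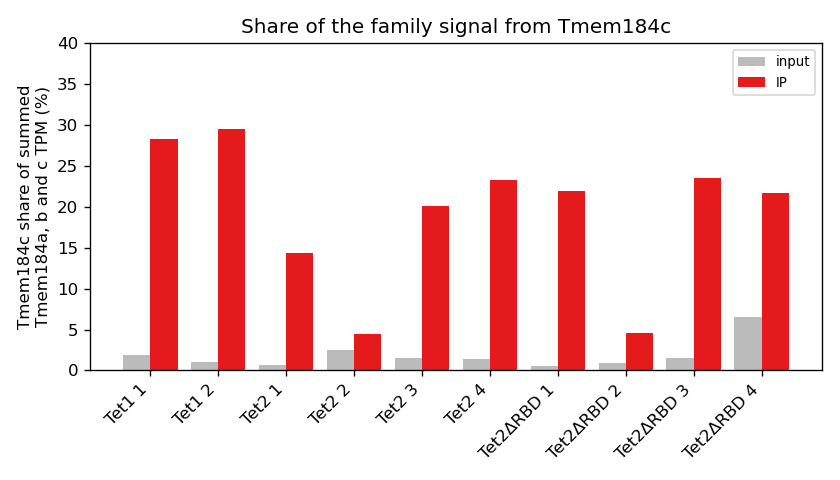
Share of the summed TPM of Tmem184a, Tmem184b and Tmem184c that came from Tmem184c, in percent, in the input (grey) and IP (red) library of each of the 10 pairs. The share is at most 6.48% in input and reaches 29.4% in IP, with replicate 2 of Tet2 and Tet2ΔRBD lowest in IP.

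Among the input levels of the 3 genes, that of Tmem184a passed the test between lines. It was 5.01 and 5.50 TPM in Tet1, above all 8 inputs of the other lines, whose highest value was 3.79 TPM. Within library set 3 the Tet2 inputs held 2.60 and 2.83 TPM and those of Tet2ΔRBD 2.24 and 1.39 TPM. With the library set as a covariate, the fitted log2 difference was −1.42 for Tet2ΔRBD minus Tet1 (SE 0.27, adjusted p = 0.00597) and −0.97 for Tet2 minus Tet1 (SE 0.26, adjusted p = 0.0202). Such calls were frequent between these lines, at 25.5% of 13310 genes for Tet2ΔRBD against Tet1 and 31.5% for Tet2 against Tet1, but only 3.14% for Tet2ΔRBD against Tet2, where Tmem184a differed by −0.45 (SE 0.20, adjusted p = 0.272). Both calls were lost without the covariate (adjusted p = 0.374 and 0.638) and with the replicate number as a block (log2 differences of −1.0 and −0.53, adjusted p = 0.0699 and 0.283), and that for Tet2ΔRBD minus Tet1 was also lost without Tet1 replicate 2 (adjusted p = 0.0596). The call for Tet2 minus Tet1 was also lost without Tet1 replicate 1 or 2 (adjusted p = 0.0738 and 0.133) and without Tet2 replicate 3 or 4 (adjusted p = 0.0537 and 0.0506). A line and its clone cannot be told apart. Tmem184b differed by 0.01 for Tet2ΔRBD minus Tet1 (SE 0.13, adjusted p = 0.954), 0.26 for Tet2 minus Tet1 (SE 0.13, adjusted p = 0.159) and −0.24 for Tet2ΔRBD minus Tet2 (SE 0.10, adjusted p = 0.214). For Tmem184c, Tet2ΔRBD minus Tet1 was 0.89 (SE 0.68, adjusted p = 0.369), but −1.01 with the replicate block and −0.30 without Tet2ΔRBD replicate 4.

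No difference between IP and input was detected in the mix of transcript forms of the paralogs. The effective length that RSEM assigns to a gene shifts when longer or shorter RefSeq transcripts take a larger share of its reads. That of Tmem184a (2 RefSeq transcripts) ranged from 1791 to 1971 bases, and IP minus input averaged 0.0380 ± 54.8 bases (SD, n = 10 pairs; p = 0.998, two-sided exact sign-flip permutation test). That of Tmem184b (4 transcripts) ranged from 2924 to 3086 bases, with a mean difference of −6.59 ± 31.1 bases (SD, n = 10 pairs; p = 0.504, exact permutation test). Tmem184c has 1 RefSeq transcript in the table, so its length carries no such information.

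The ratio of Tmem184c stood apart from the other genes whose symbols begin with Tmem and a number, a set joined by a naming rule for membrane proteins and not by descent. Of 215 such genes, 177 were tested. In Tet1, 0 were called higher in IP and 13 lower. In Tet2, 7 were higher and 54 lower, and in Tet2ΔRBD 6 were higher and 43 lower. Their median log2 ratios were −0.20, −0.21 and −0.19, against −0.04, 0.00 and −0.01 over all genes tested. The shares called lower were 7.34%, 30.5% and 24.3% in Tet1, Tet2 and Tet2ΔRBD, beside 3.18%, 18.5% and 12.1% of all genes, and those called higher were 0%, 3.95% and 3.39%, beside 2.72%, 14.6% and 7.4%. The highest of them were Tmem106b in Tet1 (log2 ratio 1.04, adjusted p = 0.0998), Tmem132d in Tet2 (1.07, adjusted p = 0.0861) and Tmem121 in Tet2ΔRBD (0.93, adjusted p = 0.00392). By the mean over the lines the highest were Tmem106b, a lysosomal membrane protein, and Tmem121. The lowest were Tmem88b and Tmem69, whose log2 ratios in Tet2 were −1.80 (adjusted p = 0.00109) and −2.16 (adjusted p = 0.000579).

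**Figure D4:**
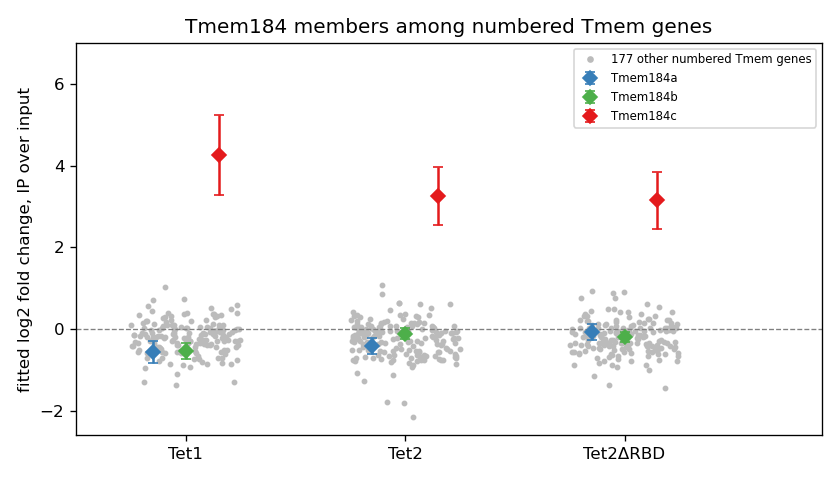
Fitted log2 fold change of IP over input (edgeR) in each line for Tmem184a, Tmem184b and Tmem184c (diamonds, ± 1 SE) and for 177 other numbered Tmem genes (grey points, spread sideways for legibility). Tmem184c lies at 4.26, 3.26 and 3.15, while the highest grey points lie at 1.04, 1.07 and 0.93.

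The transporter relatives gave little to compare. The alpha subunit gene Slc51a, listed as Osta, averaged 2.15 TPM in input and 2.53 TPM in IP, and its fitted log2 ratios of 0.15, −0.18 and 0.08 in Tet1, Tet2 and Tet2ΔRBD did not pass the test (adjusted p from edgeR 0.882, 0.715 and 0.898). The beta subunit gene Slc51b, listed as Ostb, reached at most 0.14 TPM and was not tested.

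Genes of the compartments in which the paralogs have been placed moved in both directions. Of 32 endosome and lysosome genes, all tested, 3 were higher and 2 lower in IP in Tet1, 4 higher and 9 lower in Tet2, and 2 higher and 8 lower in Tet2ΔRBD. These were 9.38% and 6.25% of the list in Tet1 (2.72% and 3.18% of all genes), 12.5% and 28.1% in Tet2 (14.6% and 18.5%) and 6.25% and 25% in Tet2ΔRBD (7.4% and 12.1%). Their median log2 ratios were −0.08, −0.10 and −0.11, against −0.04, 0.00 and −0.01 over all genes tested. The highest by the mean over lines were Eea1, an early endosome tether, and Vps35, a retromer subunit. Vps35 was called in each line, with log2 ratios of 1.91 (adjusted p = 0.0222), 1.18 (adjusted p = 0.00575) and 0.92 (adjusted p = 0.0305) in Tet1, Tet2 and Tet2ΔRBD. Eea1 had log2 ratios of 1.69, 1.36 and 1.19 and was called in Tet2 only (adjusted p = 0.0936, 0.0235 and 0.0535). The lowest were Rab7, a late endosome GTPase, and Vps29, which binds Vps35 within retromer: the log2 ratio of Vps29 was −0.95, −1.43 and −1.10 and that of Rab7 −0.70, −0.82 and −0.74, all called. Transcripts of 2 subunits of one complex, taken from the ends of the list, thus went in opposite directions. Vps26a, another retromer subunit on the list, was called in no line, with log2 ratios of 0.16, −0.12 and −0.11 in Tet1, Tet2 and Tet2ΔRBD.

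Of 14 genes for heparan sulfate synthesis and core proteins, 0 were called in Tet1, 3 higher and 2 lower in Tet2, and 1 higher and 1 lower in Tet2ΔRBD, with median log2 ratios of −0.24, −0.02 and 0.07. The shares were 21.4% higher and 14.3% lower in Tet2 and 7.14% each way in Tet2ΔRBD, from few genes, beside 14.6% and 18.5%, and 7.4% and 12.1%, of all genes. Gpc1 (glypican 1) was higher in Tet2 (0.51, adjusted p = 0.00680) and Tet2ΔRBD (0.45, adjusted p = 0.0212), and Ext2, a heparan sulfate polymerase subunit, in Tet2 (0.71, adjusted p = 0.00220). Sdc4 (syndecan 4) was lower in Tet2 (−0.67, adjusted p = 0.00745) and Tet2ΔRBD (−0.58, adjusted p = 0.0245), and Sdc2 (syndecan 2) in Tet2 (−0.51, adjusted p = 0.0269). In Tet1 none of these 4 genes passed the same edgeR test.

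The tested genes beside Tmem184c were also higher in IP, in Tet2 and Tet2ΔRBD but not past the threshold in Tet1. No annotated gene measured here overlapped Tmem184c, and of its 6 nearest genes 2 were tested. Prmt10, an arginine methyltransferase gene 14644 bases away, was higher in IP than in input in 10 of 10 pairs, by 1.56-fold to 3.40-fold in TPM, and Arhgap10 in 10 of 10 by 1.75-fold to 4.82-fold. The fitted log2 ratios of Prmt10 were 0.69 (adjusted p = 0.128), 1.14 (adjusted p = 0.00124) and 0.88 (adjusted p = 0.00947) in Tet1, Tet2 and Tet2ΔRBD. Those of Arhgap10 were 0.66 (adjusted p = 0.115), 1.18 (adjusted p = 0.000697) and 0.81 (adjusted p = 0.00864). Of all genes tested, 14.6% were called higher and 18.5% lower in Tet2, and 7.4% and 12.1% in Tet2ΔRBD, and with so few neighbours tested nothing can be read from such counts. In replicate 2 of Tet2, Prmt10 had a larger ratio than the 2.23-fold of Tmem184c, since its lowest in that line was 2.38-fold. Ednra, Nr3c2 and Ttc29 reached at most 0.49 TPM in any library, and 1700092C02Rik was listed at 0. Of the 7 neighbours of Tmem184a, 6 were tested and 1 was called, Ints1, an Integrator subunit, in Tet2 (log2 ratio 0.79, adjusted p = 0.00311), a share of 16.7% that is near that over all genes. Mafk, which overlaps Tmem184a on the opposite strand, had log2 ratios of −0.08 in Tet1, 0.14 in Tet2 and 0.20 in Tet2ΔRBD (adjusted p = 0.832, 0.412 and 0.284). Of the 7 beside Tmem184b, 6 were tested, and Kcnj4, a potassium channel gene, was higher (0.70 in Tet2, adjusted p = 0.00533, and 0.83 in Tet2ΔRBD, adjusted p = 0.00475) while Kdelr3, an endoplasmic reticulum retention receptor gene, was lower (−0.38, adjusted p = 0.0347, and −0.56, adjusted p = 0.0128).

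The pattern of Tmem184c over the 10 pairs was shared by other transcripts. Likeness was measured as the root mean square difference of log2 ratios (TPM + 1) over the 10 pairs, which share lines and library sets. It covered 12095 genes with a mean of at least 1 TPM over all libraries, IP included. Tmem184c, Rex2 and EU599041 averaged under 1 TPM in input and passed this filter only through their IP levels. The 8 nearest genes were Rex2 (0.43), Taf1d (0.58), Pabpc1 (0.64), Ncapg (0.71), Rbm26 (0.72), Dnajc2 (0.73), EU599041 (0.75) and Nop58 (0.77). Rex2 was nearest, with levels like those of Tmem184c: a mean of 0.555 TPM in input and 9.90 TPM in IP, against 0.938 and 11.6 TPM. The others ranged widely in abundance, up to Pabpc1, which encodes cytoplasmic poly(A)-binding protein, at 227 TPM in input and 1154 TPM in IP. Taf1d encodes a subunit of an RNA polymerase I initiation factor, Ncapg a condensin subunit, Dnajc2 a ribosome-associated chaperone and Nop58 a core protein of small nucleolar particles. Their mean log2 ratios lay between 1.92 (Nop58 and EU599041) and 2.46 (Rex2), below the 2.58 of Tmem184c, which was the fourth highest of the 12095. These means include the 4 Tet2 pairs on which Tmem184c was chosen, so its rank is a description only. The Pearson correlations with Tmem184c, given only as a description, ran from 0.76 (Pabpc1) to 0.95 (EU599041 and Rex2).

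The transcripts of the tagged genes were also measured in these libraries. Tet2 mRNA had a median of 10.3 TPM in the IPs of the Tet2 line, 9.57 in Tet1 and 9.04 in Tet2ΔRBD, and of 6.04, 5.87 and 6.13 TPM in the corresponding inputs. Tet1 mRNA had a median of 23.6 TPM in the IPs of the Tet1 line and 15.4 TPM in its inputs, with IP medians of 16.7 TPM in Tet2 and 21.9 TPM in Tet2ΔRBD. Input levels of Tet2 ranged from 4.14 to 7.12 TPM in Tet2, 4.96 to 6.77 in Tet1 and 2.49 to 9.21 in Tet2ΔRBD, with overlap. Those of Tet1 mRNA ranged from 13.61 to 17.25 TPM in the Tet1 line and from 8.54 to 12.04 in Tet2 (median 10.2). In Tet2ΔRBD they ranged from 8.66 to 17.05 TPM (median 11.5) and overlapped those of the Tet1 line, whereas those in Tet2 did not. RNA levels show neither the tag nor the deletion, which gene-level values cannot resolve.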

How the data were processed

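The RIP-Seq data were 20 libraries, grouped and paired by the line, sample type and replicate number in the sample labels. The authors removed rRNA and tRNA reads (Bowtie2), trimmed (Trimmomatic) and quantified with RSEM on mm9 and a RefSeq transcriptome (versions not given in the sources used here). They deposited expected counts per gene, not normalized, transcript lengths, TPM with a pseudocount of 1 added and FPKM. The FPKM values were not used, and 1 was subtracted from the deposited TPM column. The library sets come from numbers in the deposited file titles, which the labels do not explain. The 3 genes and all gene lists were chosen with earlier results of these data known.

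Expected counts were rounded, TMM-normalized and fitted with the quasi-likelihood model of edgeR 4.0.16 (R 4.3.3) over all libraries, with a block per IP and input pair and 7 residual degrees of freedom. Genes needed 1 CPM in at least 2 libraries. P-values were Benjamini-Hochberg adjusted over all genes, with a threshold of 0.05, and SE is the log2 ratio over the square root of F. Input levels were fitted on the 10 inputs with the library set as covariate. The tests were tested on simulated data. Replicate numbers were taken to pair the samples: deviations of IP and input of the same number correlated at 0.19 in Tet1, at 0.60 or more in Tet2 and 0.57 or more in Tet2ΔRBD. IP 4 correlated as well with input 3 (0.77 and 0.68) as with input 4 (0.75 and 0.57), so for replicates 3 and 4 the data show the shared library set and the pairing rests on the labels. Chi-square per gene was 2.69 to 16.1 between replicates 3 and 4 of Tet2 and Tet2ΔRBD and 132 to 527 between other replicates of these lines. Between the 2 Tet1 replicates it was 7.50 in IP and 7.62 in input. Sampling noise alone gives about 1, so alike replicates were not treated as one library. Replicates 3 and 4, and the 2 Tet1 replicates, are far more alike than the others, and this does not show that they are independent. The sign-flip tests take all pairs as independent. Percent called is the share of tested genes past the threshold.

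Alternatives were no block, RLE factors, DESeq2 1.42.0, limma 3.58.1 with a pseudocount of 1 or 0.1 on TPM, no filter, the compared lines only, replicates 3 and 4 merged, each replicate left out and, chosen after seeing the data, library set 3 only. The contrast of Tet1 with Tet2ΔRBD and the leaving out of replicate 2 in both lines were also chosen after seeing the data. Named genes were the 3 members, the 8 genes nearest to Tmem184c, Slc51a and Slc51b, the neighbours in the gencode vM1 annotation, the 2 highest and 2 lowest of each list by mean fitted ratio, and Tet1 and Tet2. Other genes named (Tmem132d and Vps26a) were chosen after their values were seen. Identity was computed from coding sequences of the same annotation. Plots were drawn with matplotlib 3.10.9.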

Additional observations from a re-analysis of the deposited data

Results flagged for a closer look

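The Tmem184a level in Tet2ΔRBD IP stood out at 3.08 TPM in replicate 1, against 2.25 to 2.38 TPM in the other 3 libraries. The Tmem184b level in Tet2 input stood out at 23.5 TPM in replicate 1, against 54.3 to 58.9 TPM in the other 3. Both are gaps beyond Dixon's 95% critical value for groups of 4 libraries, which chance exceeds in about 5% of groups, and 18 such groups were examined. Both libraries were replicate 1, from library set 1, and the part of the set in these values was not tested.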

How the results depend on the processing

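The direction of the Tmem184c ratio in each line held under every alternative, but its calls did not. Without the replicate block the log2 ratio from edgeR was 4.24 in Tet1 (adjusted p = 0.584) and 3.0 in Tet2ΔRBD (adjusted p = 0.126). Both calls thus depended on the block. It takes up differences between library sets as well as the pairing of IP and input, and these were not told apart. With replicates 3 and 4 merged it was 4.25 in Tet1 (adjusted p = 0.0543). Leaving out each pair gave 3.84 to 4.73 in Tet1 (past the threshold in 5 of 10 fits, lost without Tet1 replicate 1 or 2, Tet2 replicate 3 or 4, or Tet2ΔRBD replicate 3) and 2.63 to 3.66 in Tet2ΔRBD (9 of 10 fits). The mean in Tet1 was 4.26 on log2(TPM + 0.1). Over 6 pairs the mean ran from 2.49 to 3.02 and the excess over Tmem184b from 2.50 to 3.0 with a pair left out, each at the exact p of 0.0625 that 5 pairs allow, and the mean was 3.02 without replicate 2. The difference of Tet2 from Tet2ΔRBD ran from −0.42 to 1.00 as pairs were left out and was 0.99 in library set 3.

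For the paralogs in Tet1, the 4 Tet1 libraries alone, with a single residual degree of freedom, gave −0.54 for Tmem184a (adjusted p = 0.00200) and −0.50 for Tmem184b (adjusted p = 2.36e-13), and library set 3 alone gave −0.60 (adjusted p = 0.0214) and −0.57 (adjusted p = 0.000142). Both fits rest on replicates that differed little, so their p-values may be too small. In library set 3 Tmem184b was −0.32 in Tet2, its difference of Tet2 from Tet2ΔRBD −0.28 and its difference of Tet1 from Tet2ΔRBD −0.53 (adjusted p = 0.0101), and Tmem184a was 0.0900 in Tet2ΔRBD. By limma on log2(TPM + 1) and log2(TPM + 0.1), signs turned for Tmem184b in Tet2 (0.20 and 0.20) and Tet2ΔRBD (0.0885 and 0.0912) and for Tmem184a in Tet2ΔRBD (0.15 and 0.22), with no call. Leaving out pairs gave −0.26 to 0.19 for Tmem184a in Tet2ΔRBD and −0.0559 to 0.17 for the Tmem184b difference of Tet2 from Tet2ΔRBD. Centred on the median gene, Tmem184a was −0.32 in Tet2 and −0.22 over 10 pairs, and Tmem184b −0.45 in Tet1 and −0.14 over 10 pairs. Without replicate 2 the Tmem184a mean was 0.0282. With a pair left out the means ran from −0.10 to 3.79e-05 and from −0.0304 to 0.0980. The Tmem184a length difference was −0.162 bases by length in place of effective length, and −11.7 to 9.19 bases with a pair left out.

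The input differences of Tmem184a were −1.15 and −0.75 without the library set covariate and −1.0 (adjusted p = 0.0699) and −0.53 (adjusted p = 0.283) with a replicate block, for Tet2ΔRBD and Tet2 minus Tet1. They ran from −1.55 to −1.17 and from −1.06 to −0.84 as inputs were left out, the latter lost without either Tet1 replicate or without Tet2 replicate 3 or 4. Tmem184b turned to −0.18 without the covariate, and to −0.47 and −0.22 with the block. With inputs left out it ran from −0.0313 to 0.13 and from 0.20 to 0.33, the latter past the threshold without replicate 2 of Tet2 or of Tet2ΔRBD, and from −0.36 to −0.16 for Tet2ΔRBD minus Tet2. Tmem184c in Tet2ΔRBD minus Tet1 was −1.01 with the block and −0.30 to 1.34 with inputs left out. The causes were not tested. Depth limits the Tmem184c input most, with 7 to 121 expected counts.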
